A study of Mus musculus with 5 samples.

Results

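Glial and Schwann cell precursor markers were read in sorted sympathetic neurons of *Hif1aCKO* and control embryos, as a check of which cells the sorted samples held. The set was fixed by name and comprised *Sox10*, *Erbb3*, *Fabp7*, *Foxd3*, *S100b*, *Ednrb*, *Pmp22*, and *Mbp*. Of these 8 genes, 6 had a row among the 20224 genes of the count table, and *Foxd3* and *S100b* were not analysed here. RNA-seq was done at E14.5 on embryos whose mothers were not diabetic, with 100 cells sorted from sympathetic ganglia in each library. Controls are represented by replicates 5 and 6 (n = 2) and the mutant group by *Hif1aCKO* replicates 3, 4, and 5 (n = 3). *Hif1aCKO* embryos had the genotype *Hif1a loxP/loxP; Isl1Cre; tdTomatoAi14*, and controls were *Hif1a loxP/+; Isl1Cre; TdtomatoAi14*. The floxed allele came on a mixed C57BL/6J; C57BL/6N background and *Isl1Cre* on FVB. All embryos also carried the *Prph-eGFP* transgene, so the sort took cells in which *Isl1-Cre* had switched on tdTomato and the peripherin promoter drove eGFP. Both groups therefore carried Cre at the *Isl1* locus, and in the controls a copy of *Hif1a* is lost wherever Cre acts. *Isl1-Cre* is active in sympathoadrenal progenitors and in other neurons, and the sources do not say whether a library came from a single embryo, so p-values measure the spread between these libraries.

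Schwann cell precursors are neural crest cells that travel along growing nerves. They give rise to Schwann cells, to the satellite glia that wrap neurons in ganglia, to melanocytes, and to part of the chromaffin and autonomic cells. SOX10 is the transcription factor that keeps this lineage in its crest and glial state, neuregulin from axons keeps the precursors alive through the receptor ERBB3, and FABP7 is a lipid-binding protein of immature glia.

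Library totals ranged from 8254211 to 9700887 counts. Normalized counts below were divided by the total of each library after TMM scaling and multiplied by the mean scaled total. The identity of the sorted cells was checked on 14 sympathetic neuron genes, among them *Th* and *Dbh*, and all 14 were present in every library. *Isl1* and *Prph*, which drive the Cre and the eGFP used in the sort, are among the 14 and are no separate check. The summed level of the 14 was 11900 and 14400 CPM (counts scaled to a library size of 1000000) in the control libraries and between 10300 and 10700 in the *Hif1aCKO* libraries. *Hif1a*, whose floxed exon 2 is counted together with all its other exons, had normalized counts of 2086 and 1584 in control libraries and 2747, 1757, and 2135 in *Hif1aCKO* libraries, so the deletion could not be read from this gene total. *Hif1a* also shares 330 exonic bases with *Gm15283* on the other strand and 148 with *Gm49321* on its own strand. *Prph*, whose promoter drives eGFP, had 4483 to 6541 normalized counts with overlapping groups. *Isl1*, the locus that carries Cre, had 12580 and 14020 normalized counts in controls and 8634, 7800, and 8722 in *Hif1aCKO* libraries, with a log2 fold change of -0.67 (adjusted p = 0.446 by edgeR). No gene tested had a smaller adjusted p-value.

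Of the 6 measured markers, *Fabp7*, *Erbb3*, *Sox10*, and *Ednrb* were highest in a single library, *Hif1aCKO* replicate 3, whereas *Pmp22* and *Mbp* were spread over all libraries. *Fabp7* (ENSMUSG00000019874, chromosome 10, 57784881 to 57788450, GRCm38) had 926 counts there, 9 counts in *Hif1aCKO* replicate 5, and 0 in *Hif1aCKO* replicate 4 and in both control libraries. *Erbb3* (ENSMUSG00000018166, chromosome 10, 128567523 to 128589652) had 50 counts in *Hif1aCKO* replicate 3. The remaining libraries had 2 (control replicate 5), 1 (control replicate 6), 1 (*Hif1aCKO* replicate 4), and 0 (*Hif1aCKO* replicate 5). *Sox10* (ENSMUSG00000033006, chromosome 15, 79154908 to 79165240) had 8 counts in *Hif1aCKO* replicate 3, 1 each in control replicate 6 and *Hif1aCKO* replicate 5, and 0 in the others. The same library was thus the highest for all 3 genes, and the other *Hif1aCKO* libraries had at most 9 counts of any of them. *Ednrb* (ENSMUSG00000022122, chromosome 14, 103814625 to 103844402), the endothelin receptor of migrating crest cells, was also highest there. It had 457 counts in that library, 64 in control replicate 5, 29 in control replicate 6, 54 in *Hif1aCKO* replicate 4, and 0 in *Hif1aCKO* replicate 5. Unlike the first 3 genes, *Ednrb* therefore had at least 29 counts in 4 of the 5 libraries.

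**Figure D1:**
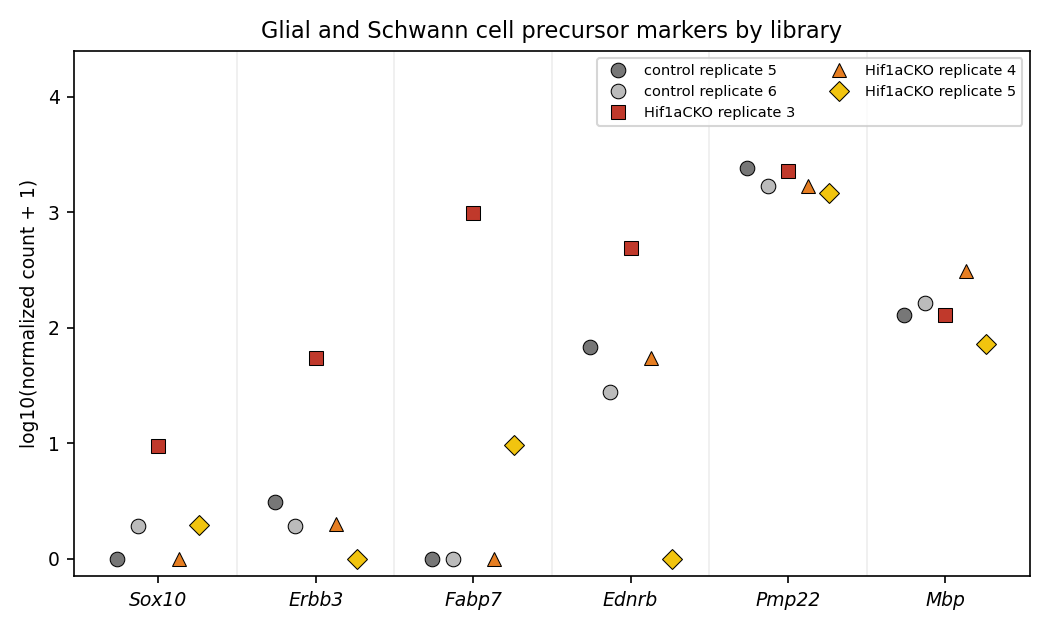
Normalized counts of the 6 measured markers in each library, on the vertical axis as log10(normalized count + 1), with a point for each of the 5 libraries. *Hif1aCKO* replicate 3 (red squares) stands above all other libraries for *Sox10*, *Erbb3*, *Fabp7*, and *Ednrb*, whereas *Pmp22* and *Mbp* are present in every library.

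The bases before a RefSeq transcription start are shown for *Fabp7* and *Ednrb*, the members with the highest counts among those highest in *Hif1aCKO* replicate 3. RefSeq (GRCm38.p6) gave windows of 250 bases before the start for 5 of the 8 genes. The *Fabp7* sequence ends after 208 bases, where the first exon of GENCODE begins. The *Ednrb* window lies inside the span that GENCODE gives this gene, which reaches 103844402, in bases that are not exonic there. It is therefore not upstream of every annotated *Ednrb* transcript. Capitals mark a match to TGGGAA, the core bound by RBPJ, the DNA-binding factor of Notch signalling, here on the reverse strand from 249 to 244 bases before the RefSeq start.
Fabp7, chr10:57784673-57784880, plus strand: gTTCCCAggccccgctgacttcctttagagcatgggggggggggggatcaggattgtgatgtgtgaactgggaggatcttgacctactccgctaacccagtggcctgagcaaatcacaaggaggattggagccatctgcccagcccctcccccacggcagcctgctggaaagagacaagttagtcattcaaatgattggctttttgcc
Ednrb, chr14:103843702-103843951, minus strand: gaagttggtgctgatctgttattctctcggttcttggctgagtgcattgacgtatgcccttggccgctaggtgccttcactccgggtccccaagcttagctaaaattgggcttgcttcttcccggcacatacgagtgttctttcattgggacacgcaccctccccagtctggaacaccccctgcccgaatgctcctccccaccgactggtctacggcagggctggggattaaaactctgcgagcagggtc

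Both strands were searched for TGGGAA and for ACAAAG and ACAATG, which are core sequences bound by SOX proteins. Neither printed window holds ACAAAG or ACAATG, and the *Ednrb* window holds no TGGGAA. Of 32851 RefSeq windows of 250 bases, 21.6% hold TGGGAA, 16.5% hold ACAAAG, and 10.7% hold ACAATG on either strand. A match describes these letters and is not a measured binding site.

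The counting precision of these levels was read from exact Poisson intervals, which cover counting error only. *Fabp7* in *Hif1aCKO* replicate 3 was at 113.5 CPM, with a 95% interval from 106.3 to 121.1, and in *Hif1aCKO* replicate 5 it was at 1.0 (0.458 to 1.90). *Erbb3* in *Hif1aCKO* replicate 3 was at 6.13 CPM (4.55 to 8.08), and *Sox10* was at 0.98 (0.423 to 1.93). For a count of 0 the limit was taken as 3 counts of the total, a one-sided limit of 0.334 CPM in *Hif1aCKO* replicate 5, which lies below the upper end of the 2-sided exact interval for 0 counts there, 0.410 CPM. *Sox10* and *Erbb3* outside *Hif1aCKO* replicate 3 were thus at or under the level of 3 counts in each library. The interval of *Fabp7* in *Hif1aCKO* replicate 3 does not meet that of any other library.

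Per length of exon the order of the markers differed between libraries. In *Hif1aCKO* replicate 3, *Pmp22* was at 111 CPM per kilobase of exon, *Fabp7* at 90.8, *Ednrb* at 13.1, *Mbp* at 1.74, *Erbb3* at 1.02, and *Sox10* at 0.32. On the same scale in control replicate 6, *Pmp22* was at 82.8, *Mbp* at 2.19, *Ednrb* at 0.721, *Sox10* at 0.035, *Erbb3* at 0.018, and *Fabp7* was at 0. *Fabp7* was therefore near the level of *Pmp22* in a single library and not detected in 3 of the other libraries.

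*Pmp22* and *Mbp* behaved differently from the other markers. *Pmp22* (ENSMUSG00000018217, chromosome 11, 63128982 to 63159547) encodes a membrane protein of compact peripheral myelin that many other cells also make. Its normalized counts were 2420 and 1706 in the controls (replicates 5 and 6) against 2286, 1709, and 1471 in *Hif1aCKO* replicates 3, 4, and 5. The groups overlapped, and the highest value belonged to a control library. *Mbp* (ENSMUSG00000041607, chromosome 18, 82475146 to 82585637) encodes myelin basic protein, and its locus also produces golli transcripts that neurons and other cells make. Normalized counts of *Mbp* were 128 and 162 in control libraries, and 129, 310, and 71.0 in *Hif1aCKO* replicates 3, 4, and 5. The highest and the lowest values were both in *Hif1aCKO* libraries, and *Hif1aCKO* replicate 3 lay beside the controls. The annotation holds 16 transcripts of *Mbp* and counts were summed over the gene, so golli and myelin transcripts cannot be told apart. None of the 6 measured markers shares exonic bases with another annotated gene.

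The gene whose pattern over the 5 libraries was most like that of *Pmp22*, the member with the highest mean count, was *Tmem17*, followed by *Gstm4* and *Rab3gap1*. The root mean square differences between the centred log2 values were 0.040, 0.043, and 0.058, and 20 of 10841 genes compared lay within 0.1. With 5 libraries this likeness is only a description.

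The genotypes were compared to ask whether glial markers differ with the loss of *Hif1a*. The low-count filter kept *Ednrb*, *Pmp22*, and *Mbp*, and removed *Sox10*, *Erbb3*, and *Fabp7*, which reached its minimum in fewer libraries than it requires. With edgeR's quasi-likelihood test, 0 of 15032 genes (0%) were called, and so were 0 of the 3 tested markers. A call needed 50 or more normalized counts on average, a log2 fold change beyond 0.3 in either direction, and p under 0.05 after Benjamini-Hochberg adjustment in edgeR. By the same test, 0 of 3 markers and 1153 genes (7.67%, of which 3.83% of all genes higher and 3.85% lower in *Hif1aCKO*) had an unadjusted p-value under 0.05. DESeq2, with the same thresholds, called 60 genes (0.388% of those with an adjusted p-value) and 0 markers. The groups overlapped for all 3 markers, whereas 25.7% of all tested genes had groups that did not overlap.

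For *Ednrb*, controls averaged 46.8 ± 28.1 normalized counts (SD, n = 2) and *Hif1aCKO* libraries 181 ± 269 (SD, n = 3), for a log2 fold change of 1.95 (standard error 1.59, edgeR adjusted p = 0.806). Without *Hif1aCKO* replicate 3 it was -0.79 (standard error 1.53), so its direction rested on that library, and limma-voom on all libraries gave -1.01. *Pmp22* averaged 2063 ± 505 normalized counts (SD, n = 2) in the controls against 1822 ± 419 (SD, n = 3). Its log2 fold change was -0.18 with a standard error of 0.23 (edgeR adjusted p = 0.893). It turned to 0.095 without control replicate 5. *Mbp* averaged 145 ± 24.2 normalized counts (SD, n = 2) in the controls against 169.8 ± 124.5 (SD, n = 3), and its log2 fold change of 0.22 with a standard error of 0.56 (edgeR adjusted p = 0.954) turned to -0.54 without *Hif1aCKO* replicate 4 and to -0.039 with limma-voom. For each of the 3 markers the difference between the means was smaller than the larger SD.

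**Figure D2:**
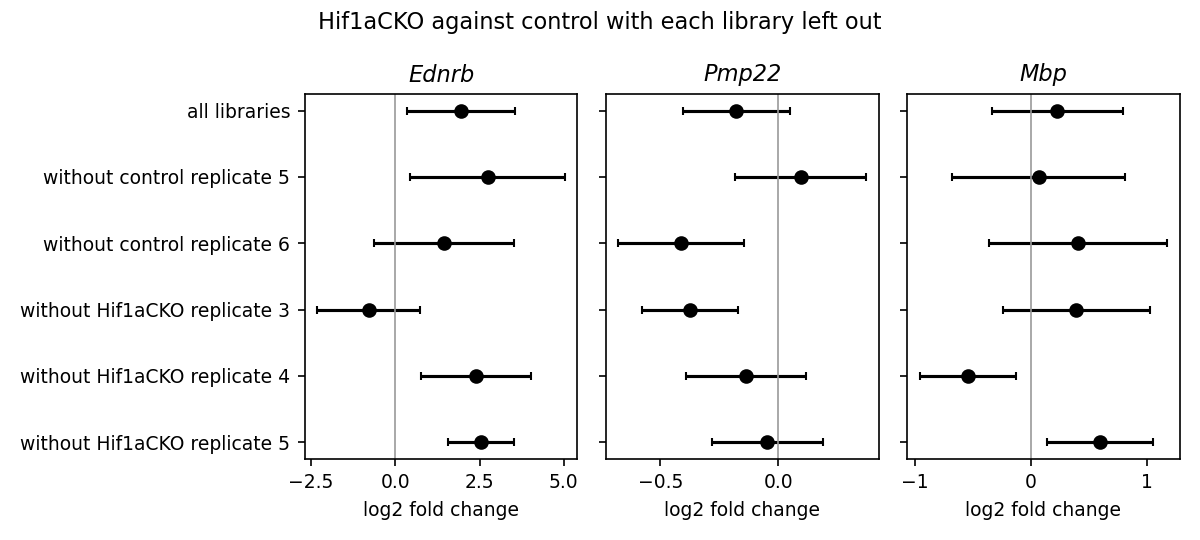
Log2 fold change of *Hif1aCKO* against control (horizontal axis, bars show the standard error) for the 3 tested markers, with all libraries and with each library left out in turn. *Ednrb* moves from 1.95 to -0.79 without *Hif1aCKO* replicate 3, *Pmp22* crosses 0 without control replicate 5, and *Mbp* crosses 0 without *Hif1aCKO* replicate 4.

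The 3 markers below the filter are given by their group sums. *Fabp7* had 935 counts over the *Hif1aCKO* libraries and 0 over the controls. The ratio of *Hif1aCKO* to control was 214, with 3 counts over both control libraries taken as the limit of a count of 0. Without *Hif1aCKO* replicate 3 this ratio fell to 3.01, from 9 counts in *Hif1aCKO* replicate 5. Neither ratio allows for the counting error of the *Hif1aCKO* counts or for the spread between those libraries. With no filter on low counts, edgeR gave *Fabp7* an unadjusted p-value of 0.0301 and an adjusted p-value of 0.717, *Erbb3* an adjusted p-value of 0.738, and *Sox10* one of 0.832. DESeq2 gave no p-value for *Fabp7* with all libraries. In DESeq2 fits added after the values were seen, *Fabp7* was called without *Hif1aCKO* replicate 5 (DESeq2 adjusted p = 0.000822) and not without replicate 4 (DESeq2 adjusted p = 0.343) or replicate 3, where it had no adjusted p-value. With replicate 5 left out, the *Fabp7* counts all came from *Hif1aCKO* replicate 3. In bulk samples, fewer cells of a type and less RNA per cell cannot be told apart.

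A wider list of 22 Schwann cell precursor and satellite glia genes had 16 rows, of which 10 were tested, 9 with a positive and 1 with a negative log2 fold change. None passed an unadjusted p-value under 0.05 (edgeR). The median log2 fold change of the 10 genes was 0.49, beside 0.012 over all genes tested, and 3 had groups that did not overlap, all higher in *Hif1aCKO*, where 12.9% of all genes were higher in this way. These 3 were *Egfl8* (log2 fold change 1.11, the highest of the list), *Ttyh1* (1.05), and *Serpine2* (0.53), of which *Ttyh1* and *Serpine2* were named after their values were seen. The lowest was *Pou3f1*, a transcription factor of promyelinating Schwann cells, at -0.78 with overlapping groups. *Gfra3*, a receptor subunit for artemin that sympathetic neurons also make, was the most abundant gene of this list, with 4347 normalized counts on average and a log2 fold change of 0.025.

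Of the 16 genes of this list with a row, 10 were highest in *Hif1aCKO* replicate 3 (62.5%) and 6 in another library, among them *Egfl8* and *Pou3f1*. Over all genes tested, 16.3% were highest in *Hif1aCKO* replicate 3. These shares are not on the same basis, as the 16 include genes with too few counts to be tested. The genes given next were named after their values were seen. *Gfap*, among the 10, had 2 counts in each *Hif1aCKO* library and 0 in the controls. *Cdh19*, a cadherin of Schwann cell precursors, had 51 counts in *Hif1aCKO* replicate 3 and 0 in each of the other libraries. *Gjc3*, a connexin of myelinating glia, had 19 counts in that library and 0 elsewhere. *Sox2*, a transcription factor of immature glia and progenitors, had 8 counts there and at most 1 in any other library. *Cdh19*, *Gjc3*, and *Sox2*, which are not among the 8 markers, were named with their values known. Their peaks in the same library are therefore a description only. *Sox9* had at most 1 count in any library.

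**Figure D3:**
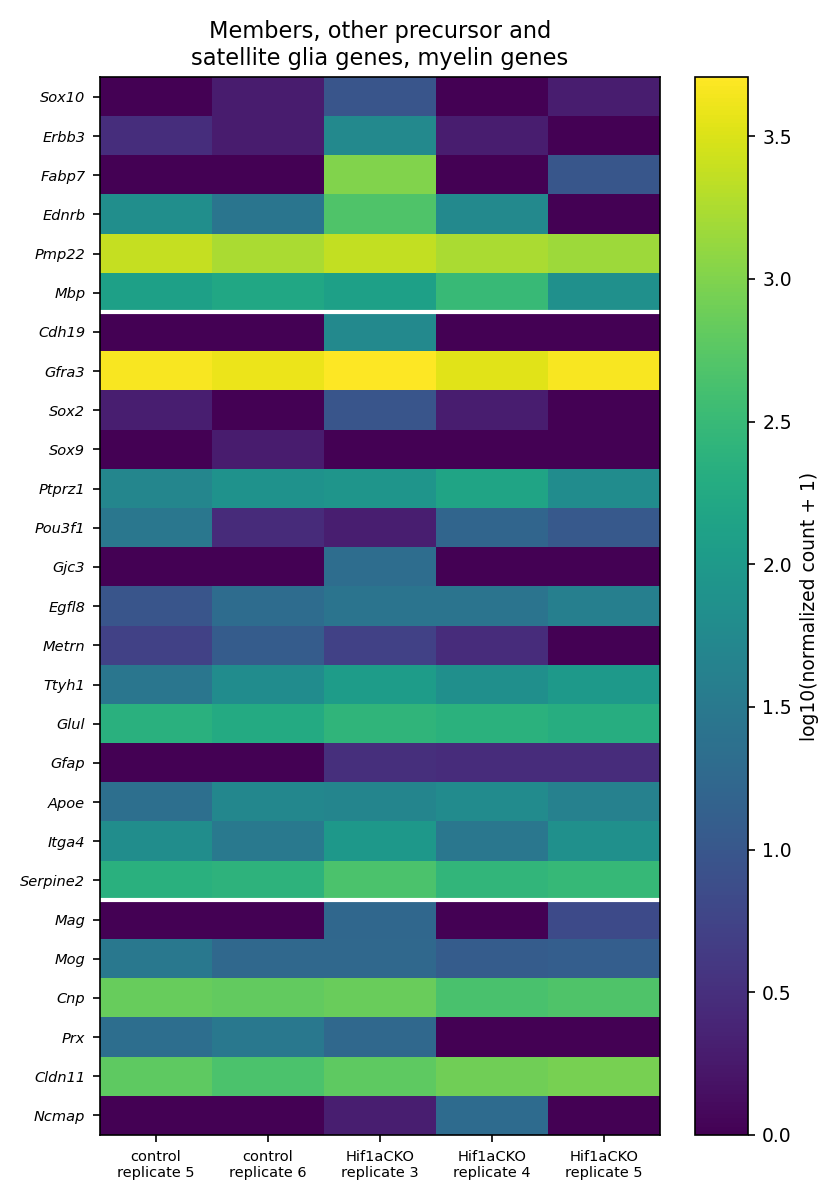
Colour shows log10(normalized count + 1) in each of the 5 libraries (columns) for the 6 measured markers (top), 15 other precursor and satellite glia genes (middle), and 6 myelin genes (bottom). *Fabp7*, *Erbb3*, *Cdh19*, and *Gjc3* are bright only in *Hif1aCKO* replicate 3 among the 5 libraries, with *Fabp7* at 9 counts in *Hif1aCKO* replicate 5.

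The number of genes found in a single library did not set *Hif1aCKO* replicate 3 apart. Genes with at least 20 counts in a library and at most 2 in each of the others numbered 21 in *Hif1aCKO* replicate 3 against 36 and 35 in *Hif1aCKO* replicates 4 and 5, and 10 and 29 in the controls. Only in *Hif1aCKO* replicate 3 did they include genes of the marker, precursor, or myelin lists, namely *Erbb3* and *Cdh19*. The others there included *Gja1* (74 counts), the gene for connexin 43, and *Dusp6* (52 counts), a phosphatase induced by ERK signalling. This search was chosen after the values were seen.

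Of 12 myelin genes, 6 had a row and 4 were tested, 1 with a positive and 3 with a negative log2 fold change and a median of -0.55. *Cldn11*, a tight junction protein of myelin, was the most abundant. Its groups did not overlap, beside 12.9% of all genes tested that were higher in *Hif1aCKO* in this way. *Cldn11* had a log2 fold change of 0.52 and an unadjusted p-value of 0.0483 (adjusted p = 0.647, edgeR). It was the 1 gene of the list under this p-value, beside 3.83% of all genes higher in *Hif1aCKO*, and it was not under it without control replicate 6, *Hif1aCKO* replicate 4, or *Hif1aCKO* replicate 5. *Prx*, which encodes periaxin, had the lowest log2 fold change, -2.14, from 20.8 and 29.7 normalized counts in controls and 17.2, 0, and 0 in *Hif1aCKO* libraries. Its groups did not overlap either, beside 12.9% of all genes tested that were lower in this way. Of the *Hif1aCKO* libraries only replicate 3 reached the minimum of the low-count filter for *Prx*. The filter thus kept *Prx* through the controls, where it was high, and its part in the list median carries no weight. *Mag*, a myelin adhesion molecule also named after its values were seen, had 15 counts in *Hif1aCKO* replicate 3, 6 in *Hif1aCKO* replicate 5, and 0 in the other libraries. The list summed to 156 and 134 CPM in control replicates 5 and 6 and between 144 and 159 in *Hif1aCKO* libraries.

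Partners of the marker receptors were read next, starting with neuregulin signalling. Of 9 listed genes besides *Erbb3*, 5 were tested, 3 with a positive and 2 with a negative log2 fold change and a median of 0.12. *Nrg1*, the neuregulin that axons present to glia, had 544 and 585 normalized counts in controls and 887, 582, and 706 in *Hif1aCKO* libraries, with overlapping groups and its highest value in *Hif1aCKO* replicate 3. *Bace1*, a protease that cleaves neuregulin, was the most abundant gene of the list. It had 1209 and 1222 normalized counts in controls and 858, 832, and 848 in *Hif1aCKO* libraries. Every *Hif1aCKO* library of *Bace1* thus lay below both controls, beside 12.9% of all genes tested that were lower in this way. The edgeR log2 fold change of *Bace1* was -0.52 ± 0.15 (standard error), with an adjusted p = 0.599 (unadjusted p-value 0.00721). It was the 1 gene of the list with an unadjusted p-value under 0.05, beside 3.85% of all genes lower in *Hif1aCKO*. *Nrg2* (0.69) had the highest log2 fold change and *Adam17* (-0.71), another protease of this pathway, the lowest. *Erbb2*, the co-receptor that carries the kinase for ERBB3 and likewise chosen with its values known, had at most 11 counts in any library.

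Endothelin signalling, in which *Ednrb* is a receptor, had 4 tested genes of 6 listed besides it. The groups did not overlap for all 4, 3 lower and 1 higher in *Hif1aCKO*, beside 25.7% of all genes, and the median log2 fold change was -1.92. *Edn3*, 1 of the 3 lower, reached the minimum of the low-count filter only in the controls. It had 10 and 25 counts there, against 0, 7, and 1 in *Hif1aCKO* replicates 3, 4, and 5. *Edn3* was thus tested only through the group where it was high, and its part in these counts and in the median carries no weight. *Ednra*, the other endothelin receptor, had 112.5 and 86.3 normalized counts in the controls against 17.2, 31.0, and 0 in *Hif1aCKO* replicates 3, 4, and 5. The edgeR log2 fold change of *Ednra* was -2.62 ± 1.09 (standard error), with an adjusted p = 0.637 (unadjusted p-value 0.0423). *Hif1aCKO* replicate 5 thus had no count of either receptor, and *Ednra* was low in the library in which *Ednrb* was highest. *Ece1*, the enzyme that releases active endothelin from its precursor, had 137.5 and 91.8 normalized counts in controls and 57.9, 50.9, and 37.0 in *Hif1aCKO* libraries. For *Ece1* edgeR gave a log2 fold change of -1.24 ± 0.43 (standard error), with an adjusted p = 0.621 (unadjusted p-value 0.0210). *Edn3*, the ligand of EDNRB in crest cells, had 25 counts or fewer in every library and a log2 fold change of -2.60, and *Ece2* had the highest, 0.32. At an unadjusted p-value under 0.05, 2 of the 4 genes were lower, beside 3.85% of all genes tested. The count was 0 without control replicate 5, 1 (*Ece1*) without control replicate 6 or *Hif1aCKO* replicate 3, and 3 without *Hif1aCKO* replicate 4.

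**Figure D4:**
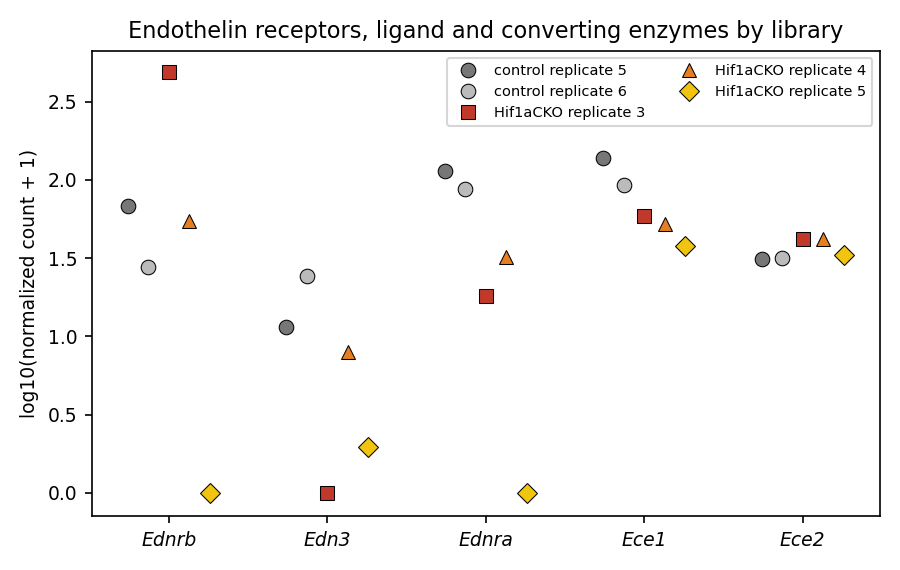
Normalized counts of *Ednrb* and the 4 measured genes of endothelin signalling in each of the 5 libraries, as log10(normalized count + 1). *Edn3*, *Ednra*, and *Ece1* lie lower in the 3 *Hif1aCKO* libraries than in both controls, and *Ednrb* ranges from 0 in *Hif1aCKO* replicate 5 to 490.0 normalized counts in *Hif1aCKO* replicate 3.

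Among 11 relatives of S100B and FABP7, 7 were tested, 1 with a positive and 6 with a negative log2 fold change and a median of -0.21, and none had an unadjusted p-value under 0.05 or groups that did not overlap. *S100a10* was the most abundant, with 1961 and 2297 normalized counts in controls and 2055, 1925, and 2044 in *Hif1aCKO* libraries. *S100a1* had the lowest log2 fold change, -1.50. *Fabp5*, the family member that neurons also make, was present in all libraries with 1394 to 2078 normalized counts and had the highest log2 fold change, 0.054. In *Hif1aCKO* replicate 3, where *Fabp7* was high, *Fabp5* had 1436 normalized counts, within the range of the other libraries. The neural crest list had 6 tested genes of 10, 4 with a positive and 2 with a negative log2 fold change and a median of 0.17, between *Id3* (0.65) and *Ets1* (-0.54). *Tfap2b*, which sympathetic neurons express, was its most abundant gene, with 4637 to 5720 normalized counts.

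Other cell types that a dissected chain could hold were read in the same libraries. Mesenchyme genes summed to 40.3 CPM in *Hif1aCKO* replicate 3, 11.9 and 30.5 in *Hif1aCKO* replicates 4 and 5, and 19.2 and 3.92 in controls. Most of this was *Postn*, which encodes the matrix protein periostin, with 320 counts in *Hif1aCKO* replicate 3, whereas *Col1a1* had at most 6 counts in any library. Endothelial genes, led by *Kdr*, summed to at most 4.35 CPM, melanocyte genes, led by *Pmel*, to at most 3.50, and the macrophage list, of which only *Csf1r* had a row, to at most 12.8. Of the erythroid list only *Alas2* had a row, with at most 31 counts. The motor neuron list, led by *Slc18a3*, summed to 78.3 and 108 in controls and between 34.1 and 61.4 in *Hif1aCKO* libraries, and the sensory neuron list, led by *Prrxl1*, to between 71.9 and 119 over all libraries. Chromaffin cell genes, led by *Chgb*, summed to 968 and 1290 in controls and to 357, 876, and 458 in *Hif1aCKO* replicates 3, 4, and 5. *Hif1aCKO* replicate 3 had the highest sums of the 5 libraries for the marker list (453 CPM), the wider precursor list (725), and mesenchyme. It had the lowest sums for the chromaffin, motor neuron, sensory neuron, and endothelial lists. Most of its marker and precursor sums came from *Pmp22* (2132 counts) and *Gfra3* (4740 counts), which other cells also make. Its chromaffin sum was nearly all *Chga* (2161 counts) and *Chgb* (724 counts). These sums therefore describe few genes and do not measure cell types.

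Most sympathetic neuron genes had negative log2 fold changes without being called. Of the 14 sympathetic neuron genes, 10 had a negative and 4 a positive log2 fold change, with a median of -0.29 and 0 called, from *Th* (-1.37), the rate-limiting enzyme of catecholamine synthesis, to *Hand2* (0.59). At an unadjusted p-value under 0.05, 6 were lower (*Th*, *Dbh*, *Isl1*, *Slc18a2*, *Stmn2*, and *Tubb3*) and 1 was higher (*Hand2*) by edgeR, beside 3.85% of all genes lower and 3.83% higher. Without control replicate 6 the count was 2 lower (*Isl1* and *Tubb3*) and 0 higher, and without *Hif1aCKO* replicate 3 it was 7 lower and 2 higher. *Stmn2*, the most abundant, had 21380 and 27400 normalized counts in controls and 21110, 18740, and 19440 in *Hif1aCKO* libraries. In *Hif1aCKO* replicate 3, where 4 of the 6 measured markers were highest, the sum of this list was 10700 CPM, the highest of the 3 *Hif1aCKO* libraries. The part of co-sorted glial cells in any difference between the genotypes was not tested.

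DESeq2 called 60 genes with all libraries. Leaving out *Hif1aCKO* replicate 3 gave 273 genes, 49 of them among the 60, and leaving out *Hif1aCKO* replicates 4 or 5 gave 40 and 36. All 60 genes had the same direction in each of these 3 fits, and neither control library was left out in them. The 60 were selected on the libraries that these fits reuse, so their agreement in direction was largely set by that selection. The fits were added after the values were seen.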

How the data were processed

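The deposited table held raw counts of reads per gene for 5 libraries, without normalization. The authors trimmed reads with cutadapt (version 1.18) and Trimmomatic, removed ribosomal RNA and vector reads with bowtie and SortMeRNA, mapped to GRCm38 with STAR (version 2.7.0c), and counted with Rsubread at its default settings, which do not use strand, leaving out multi-mapping reads. Gene names and exon lengths came from GENCODE release M21 on GRCm38, which lacks 29 of the 20224 identifiers.

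Groups followed the sample labels. Counts were tested with edgeR (version 4.0.16, R version 4.3.3) after TMM normalization and filterByExpr, with p-values adjusted by the Benjamini-Hochberg method over 15032 genes. TMM factors ranged from 0.974 to 1.03. Standard errors came from the same fit. Alternatives were DESeq2 (version 1.42.0), the likelihood ratio test, RLE and upper-quartile normalization, limma-voom (limma version 3.58.1), other low-count filters and thresholds, and leaving out each library on the same genes. An exact permutation test of 2 against 3 values cannot give a p under 0.1. The edgeR and DESeq2 fits were tested on simulated data with known changes.

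The members and lists were chosen with earlier results of these data known. Named genes were the members, the most abundant gene of each list, and, outside the other cell types, the genes with the highest and lowest log2 fold change and those with an unadjusted p-value under 0.05, with exceptions marked. Some genes of the lists are not reported here by name. Likeness of patterns used log2 of the normalized count plus 0.5. Summaries used Python (version 3.11.15).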

Additional observations from a re-analysis of the deposited data

How the results depend on the processing

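With each library left out in turn, the number of genes called by edgeR was 0 to 1 (1 without *Hif1aCKO* replicate 4) and of markers called 0, while 0 to 1 markers had an unadjusted p-value under 0.05 (*Ednrb* without *Hif1aCKO* replicate 5) and 0 to 1 had groups that did not overlap (*Pmp22* without control replicate 6). Where 1 control was left, it was assumed to vary like the *Hif1aCKO* libraries. Log2 fold changes then ranged from -0.79 to 2.74 for *Ednrb*, from -0.41 to 0.095 for *Pmp22*, and from -0.54 to 0.59 for *Mbp*, and their median from -0.38 to 0.59. DESeq2 called 60 genes, the likelihood ratio test 40, and DESeq2 without a *Hif1aCKO* library, added after seeing the data, 36, 40, and 273 (without replicates 5, 4, and 3). Of the markers, 1 (*Fabp7*) was called in the fit without *Hif1aCKO* replicate 5. The cause was not tested. limma-voom turned *Ednrb* to -1.01 and *Mbp* to -0.039. DESeq2 and the fit with no filter also gave values to *Sox10*, *Erbb3*, and *Fabp7*, which moved the median to 2.33 and 2.19, and without the filter 1 marker (*Fabp7*) had an unadjusted p-value under 0.05. With at least 10 counts in every library, *Ednrb* was not tested. RLE and upper-quartile normalization, an adjusted p-value under 0.1, and no threshold on the mean count left the calls at 0. No paired analysis was possible because the groups share only replicate number 5. Markers with a few counts limit what this depth can show.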
